A study of Mus musculus with 37 samples.

Results

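Mouse genes listed under a provisional symbol, Gm with a number or a clone name ending in Rik, make up 3411 of the 23235 genes in the deposited RNA-seq table. Of these, 74 were high at the 2-cell stage and low at the 1-cell stage, and they are described here. A gene was taken when both libraries of 2-cell embryos given a control siRNA (siControl) had at least 10 FPKM and when their mean plus 1 was at least 10 times the 1-cell value plus 1. FPKM is fragment number scaled to transcript length and to the mapped fragments of the library. The rule took 2.17% of the Gm and Rik genes and, among the 19824 genes of other names, 336 or 1.69%, so that 410 genes of the table (1.76%) met it. The siControl and 1-cell values chose the members, so the rise between these groups is a description and no finding. The Nfya-KD libraries had no part in the choice.

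The RNA-seq comprised 5 libraries of pooled mouse embryos made by in vitro fertilization. Embryos given siRNA against Nfya (Nfya-KD) were 2-cell embryos taken 30 h after fertilization, in pools of 10 (library 1) and 13 (library 2). The siControl embryos were 2-cell embryos of the same time, in pools of 10 (library 1) and 16 (library 2). The 1-cell embryos came from 12 h after fertilization, in 1 pool of 20, and no label says that they were given any siRNA. The strain labels of all 3 groups name BDF1 oocytes and BDF1 sperm, and the protocol gives BDF1 females of 8 weeks as oocyte donors. The protocol's general text names JF1 sperm, which the strain labels of these libraries do not. The series' design text numbers the Nfya siRNAs as the libraries are numbered, so siRNA and library number cannot be told apart within Nfya-KD. No label says that the pools came from separate mothers or days, and p-values below measure only the spread between these samples.

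At the 2-cell stage the mouse embryo begins large-scale transcription of its own genome, while much of the RNA stored in the oocyte is degraded. Many of the genes switched on then belong to rodent families with tandem copies, such as the Pramel, Tdpoz and Zscan4 genes, and provisional symbols are common among them. Nfya encodes the subunit of the trimeric factor NF-Y that reads the CCAAT sequence, found near the starts of many promoters.

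The name uncharacterized held for most members but not for all. All 74 members (46 Gm, 28 Rik) matched a gene of the RefSeq table on assembly GRCm38.p6, and 23 of them now carry another symbol there. RefSeq classes 45 members as protein coding, 18 as lncRNA, 10 as transcribed pseudogenes and 1 as a snoRNA. Of the coding members, 27 still have a Gm or Rik symbol, 6 are Pramel genes, 4 are Tdpoz or Spop-like genes, and 8 are other named genes. Members lay on 17 chromosomes, most often on chromosomes 4 (13 members), 12 (8), X (8) and 11 (7). A total of 29 members stood within 500 kb of another member, in 9 blocks. The longest of these, on chromosome 12, held Gm16381, Gm1995, Gm2016, Gm2022, Gm4027, Gm5662 and Gm8300, with the oocyte-named gene Oog1 among their neighbours. One block on chromosome 4 held Pramel17, Pramel19 and Gm12789, and another on that chromosome held Pramel16, Pramel21, Pramel24 and Gm13102. Tdpoz7, Tdpoz9 and Spopfm2 were neighbours on chromosome 3. Members of such blocks can be near-identical copies, and no source used here says how reads shared between copies were divided, so their separate levels are uncertain. The same holds for the pseudogenes, such as Gm15772, whose RefSeq entry lists Rpl26 as a synonym.

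RefSeq promoter windows were available for 52 members, as 55 windows of 300 bp that run from 250 bp before to 50 bp after a gene's start. A pair of windows is shown first because their genes, Gm9 and 2610318N02Rik, were the members with the smallest p in Nfya-KD. Capitals mark CCAAT or its reverse complement ATTGG, the sequence read by NF-Y, and GGATTA or its reverse complement TAATCC, the sequence favoured by homeodomain proteins of the Otx and Crx type. The first window is chrX:37210992-37211291 on the minus strand and the second chr16:17125153-17125452 on the minus strand, both on GRCm38.p6.
Gm9: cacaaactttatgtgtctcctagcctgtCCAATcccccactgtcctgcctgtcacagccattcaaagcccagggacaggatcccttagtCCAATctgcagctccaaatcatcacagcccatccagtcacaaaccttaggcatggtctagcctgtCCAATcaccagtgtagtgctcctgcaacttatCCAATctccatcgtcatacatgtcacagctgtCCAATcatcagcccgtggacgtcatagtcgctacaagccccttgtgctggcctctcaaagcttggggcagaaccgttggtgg
2610318N02Rik: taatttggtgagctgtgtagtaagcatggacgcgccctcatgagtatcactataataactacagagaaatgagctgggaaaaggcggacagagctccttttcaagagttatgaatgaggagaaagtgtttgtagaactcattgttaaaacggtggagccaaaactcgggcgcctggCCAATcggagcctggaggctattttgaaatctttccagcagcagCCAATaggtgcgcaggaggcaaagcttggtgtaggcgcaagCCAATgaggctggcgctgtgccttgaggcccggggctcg
The Gm9 window held CCAAT at 5 places, centred at -220, -159, -94, -62 and -30 bp from the start, each time on the gene's strand. A window with 5 or more such matches was rare, at 0.271% of all 32851 windows and 0.535% of the windows of genes tested in the RNA comparison. The 2610318N02Rik window held 3 matches, of which the last was centred 13 bp after the start. Windows with 3 or more made up 3.37% of all windows and 5.22% of the windows of genes tested. Among the 55 member windows, 4 held 3 or more. Gm15455 and 2610019E17Rik (Rab26os) each had 4 matches, with log2 changes in Nfya-KD over siControl of 0.03 and -0.27.

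Other windows are shown because genes on different chromosomes had like promoters. Across all 1485 pairs of member windows the median identity was 49.4%, and 22 pairs reached 70%. Among these, Gm8994 (Eif4a3l1) on chromosome 6, Gm4340 on chromosome 10 and B020004J07Rik (Pramel17) on chromosome 4 had windows alike over most of their length. Their windows lie at chr6:136327289-136327588 on the plus strand, chr10:104193792-104194091 on the plus strand and chr4:101843973-101844272 on the minus strand (GRCm38.p6).
Gm8994 (Eif4a3l1): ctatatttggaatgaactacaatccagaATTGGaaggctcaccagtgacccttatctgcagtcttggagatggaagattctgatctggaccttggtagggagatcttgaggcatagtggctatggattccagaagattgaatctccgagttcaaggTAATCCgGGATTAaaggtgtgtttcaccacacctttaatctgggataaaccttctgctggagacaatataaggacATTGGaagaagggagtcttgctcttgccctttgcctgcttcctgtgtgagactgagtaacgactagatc
Gm4340: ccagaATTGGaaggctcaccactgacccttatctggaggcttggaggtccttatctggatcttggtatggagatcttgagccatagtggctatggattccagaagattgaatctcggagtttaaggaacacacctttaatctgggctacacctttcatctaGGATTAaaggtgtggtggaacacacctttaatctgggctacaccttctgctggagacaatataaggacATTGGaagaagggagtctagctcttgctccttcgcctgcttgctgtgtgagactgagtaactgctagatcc
B020004J07Rik (Pramel17): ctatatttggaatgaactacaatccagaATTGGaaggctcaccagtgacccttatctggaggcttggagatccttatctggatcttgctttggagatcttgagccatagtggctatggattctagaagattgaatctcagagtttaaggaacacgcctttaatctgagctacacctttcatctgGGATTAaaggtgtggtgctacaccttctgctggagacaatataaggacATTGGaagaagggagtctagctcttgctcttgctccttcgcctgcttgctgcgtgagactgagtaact
The Pramel17 window was 79.3% identical to that of Gm4340 and 78.6% identical to that of Eif4a3l1. All 3 windows carried ATTGG at 2 places and GGATTA at least once, the latter between 100 and 50 bp before the start. A further pair was Gm428 on chromosome 4 and B020004C17Rik on chromosome 14, at chr4:73683264-73683563 on the plus strand and chr14:57014884-57015183 on the plus strand (GRCm38.p6).
Gm428: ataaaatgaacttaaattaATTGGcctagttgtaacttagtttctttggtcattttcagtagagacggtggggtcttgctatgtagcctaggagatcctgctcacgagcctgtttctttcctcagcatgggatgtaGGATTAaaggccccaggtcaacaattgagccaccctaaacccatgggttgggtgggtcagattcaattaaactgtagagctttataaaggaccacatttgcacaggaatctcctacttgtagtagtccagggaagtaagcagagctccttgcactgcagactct
B020004C17Rik: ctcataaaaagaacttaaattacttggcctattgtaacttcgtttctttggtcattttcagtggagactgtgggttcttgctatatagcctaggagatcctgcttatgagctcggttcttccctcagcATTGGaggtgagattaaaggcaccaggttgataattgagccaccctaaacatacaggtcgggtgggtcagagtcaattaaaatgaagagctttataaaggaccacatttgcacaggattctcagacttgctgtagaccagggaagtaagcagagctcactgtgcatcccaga
These windows were 84.3% identical. The Gm428 window held GGATTA, and the like stretch of B020004C17Rik did not hold these 6 letters. In all, windows of 17 members fell into 5 groups that joined different genes, each window being at least 70% identical to 1 or more others of its group, though not always to all of them.

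Over the whole set, CCAAT or ATTGG was found in 33 of 55 member windows (60.0%). The share was 36.5% in 310 windows of the other genes at the rule, 39.5% in windows of the genes tested and of all Gm and Rik genes alike, and 37.4% in all windows. GGATTA or TAATCC was found in 16 member windows (29.1%), against 11.0% for the other genes at the rule, 6.05% for genes tested, 7.42% for all Gm and Rik genes and 7.06% for all windows. With 1 window counted per group of like windows, CCAAT stood at 59.5% of 42 and GGATTA at 14.3%. Counted as groups with the motif in any of their windows, CCAAT stood at 61.9% and GGATTA at 16.7%. Among members, the GGATTA share thus fell when like windows were merged, and the CCAAT share changed little. Windows of the other sets were not merged, so the merged shares have no like counterpart. The last motif searched, TATAAA or its reverse complement, was in 7 member windows (12.7%) and in 13.6% of all windows. CCAAT and GGATTA matches overlapped in no member window. Base composition differs between these sets, with a median GC content of 49.0% in member windows, 60.0% in those of genes tested and 52.7% in all windows, and its part in the motif shares was not tested. These are letter matches and say nothing on whether a factor was bound.

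**Figure D1:**
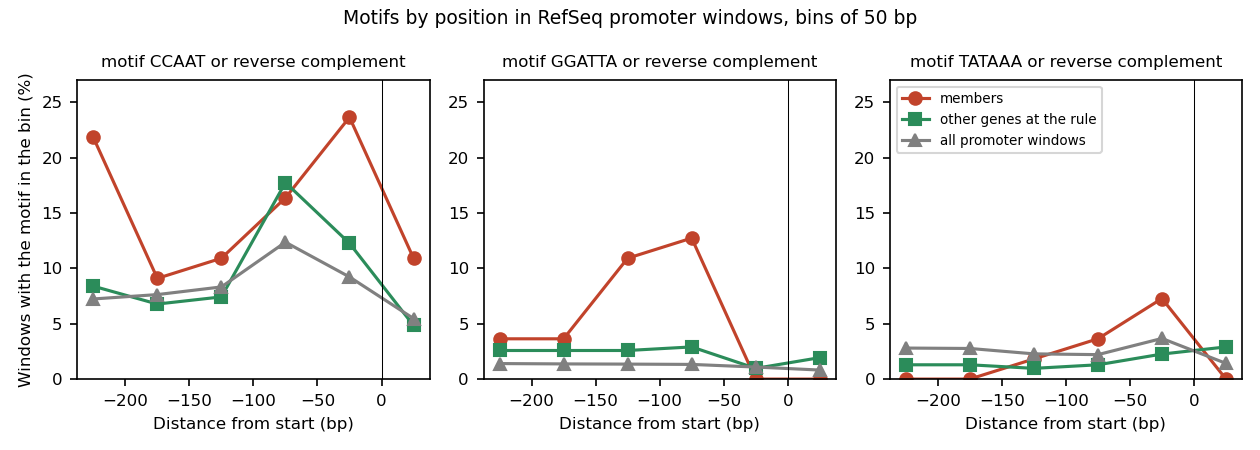
Share of promoter windows with each motif in bins of 50 bp (y axis, percent) by distance from the gene's start (x axis, bp), for members (55 windows), other genes at the rule (310) and all RefSeq windows (32851). In the last 50 bp before the start, CCAAT was found in 23.6% of member windows and 12.3% of those of the other genes at the rule. Between 250 and 200 bp before it the shares were 21.8% and 8.39%, and between 100 and 50 bp before it 16.4% and 17.7%. Like windows are each counted, among them those of Gm4340, Eif4a3l1 and Pramel17, which all hold CCAAT between 250 and 200 bp. In members GGATTA lay between 250 and 50 bp before the start, with 0 matches nearer.

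Per library, the members' summed level was 6486 and 11428 FPKM in Nfya-KD libraries 1 and 2, 6224 and 14773 FPKM in siControl libraries 1 and 2, and 117 FPKM in the 1-cell library. As a share of the FPKM of all genes this came to 2.49% and 2.54% in Nfya-KD, 2.56% and 3.23% in siControl, and 0.0279% at the 1-cell stage. Fewer cells of a type and less RNA per cell cannot be told apart in such pools. At the 1-cell stage 57 members were under 1 FPKM and 10 were listed at 0. The ratio of mean siControl over 1-cell on the (FPKM + 1) scale had a median of 33.0 and ranged between 10.1 and 596, with 16 members at 100 or more.

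**Figure D2:**
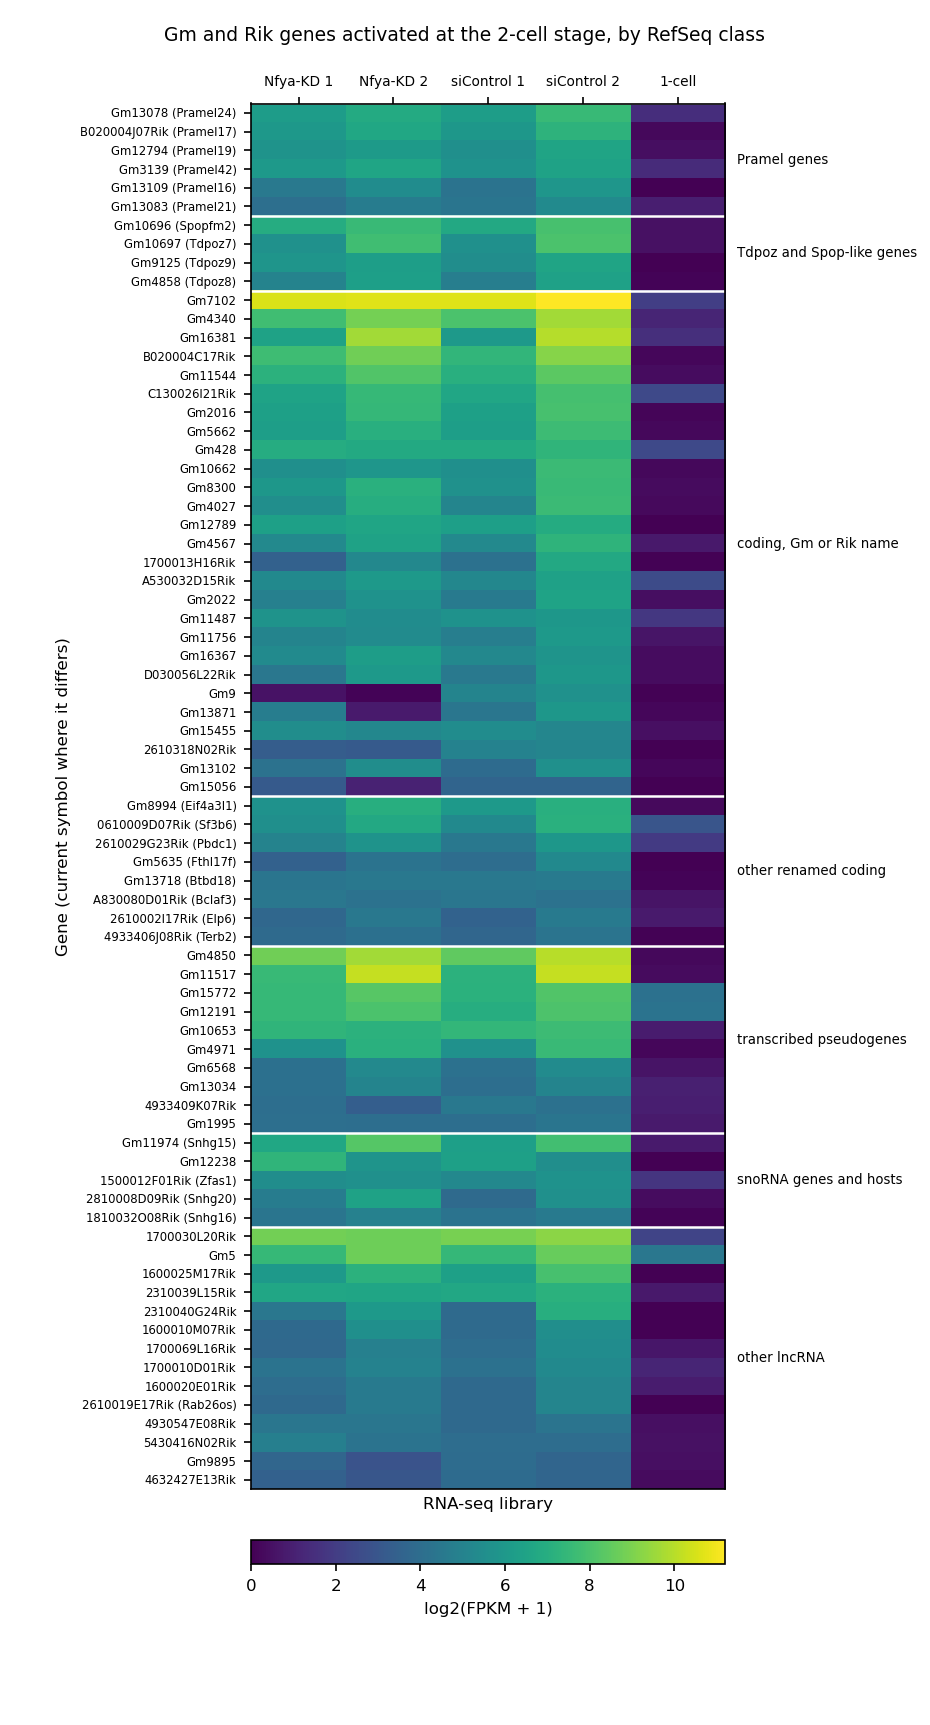
Level of the 74 members in log2(FPKM + 1) (colour) in each RNA-seq library (columns), grouped by RefSeq class and ordered by siControl mean within a class. The rule, a ratio, makes the 1-cell column darker than siControl in each row, and it is lightest for Gm5, Gm12191 and Gm15772, at 20.5, 18.5 and 17.05 FPKM. The number 2 libraries of both 2-cell groups are brighter than the number 1 libraries for most genes.

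The coding gene Gm7102 was the most abundant member, with 1515 and 1638 FPKM in Nfya-KD, 1638 and 2366 FPKM in siControl and 3.24 FPKM at the 1-cell stage. It alone made up 23.4% and 14.3% of the members' sum in Nfya-KD and 26.3% and 16.0% in siControl. Next in siControl mean came the transcribed pseudogenes Gm4850 and Gm11517. Gm4850 had 440 and 798 FPKM in Nfya-KD, 353 and 1036 FPKM in siControl and 0.167 FPKM at the 1-cell stage, which gave the highest ratio of all members, 596. Gm11517 had 190 and 1182 FPKM in Nfya-KD, 146 and 1202 FPKM in siControl and 0.250 FPKM at the 1-cell stage. The libraries of the same number were close for Gm11517, while those of different numbers lay far apart in both groups.

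Another 3 members had siControl means above 500 FPKM. The lncRNA 1700030L20Rik had 457 and 427 FPKM in Nfya-KD, 483 and 614 FPKM in siControl and 3.95 FPKM at the 1-cell stage. Gm4340, whose promoter is printed above, had 217 and 469 FPKM in Nfya-KD, 264 and 817 FPKM in siControl and 1.23 FPKM at the 1-cell stage. Gm16381, of the chromosome 12 block, had 85.7 and 805 FPKM in Nfya-KD, 65.0 and 996 FPKM in siControl and 1.88 FPKM at the 1-cell stage. Of these, 1700030L20Rik was lower in both Nfya-KD libraries than in either siControl library, and the other pair overlapped. Below them, siControl means of 374 ± 296 FPKM for B020004C17Rik, 281 ± 148 FPKM for the lncRNA Gm5, 232 ± 139 FPKM for Gm11544 and 214 ± 103 FPKM for Gm15772 (SD, n = 2 each) had wide spreads, with the B020004C17Rik range overlapping the others. The ratio was 330 for B020004C17Rik, 178 for Gm11544, 167 for the lncRNA 1600025M17Rik, 146 for Gm2016 and 126 for Gm10696 (Spopfm2). By contrast Gm5 and Gm15772 already had 20.5 and 17.05 FPKM at the 1-cell stage.

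Just inside the level threshold stood 2610002I17Rik (Elp6, a subunit of the Elongator complex), with 10.7 FPKM in its lower siControl library, and Gm15056, with 11.1 FPKM. Just outside it stood Gm5039 and 1810027O10Rik, both with 9.9 FPKM, and 4933411G11Rik, with 9.44 FPKM. Ratios of 10.1 for 2610002I17Rik and 10.2 for the lncRNA Gm9895 were just inside the ratio threshold, and A430089I19Rik at 9.96 was just outside.

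The targeted gene was lower in both Nfya-KD libraries. Nfya had 3.28 and 4.48 FPKM in Nfya-KD, 10.3 and 15.5 FPKM in siControl and 36.8 FPKM at the 1-cell stage, a log2 change of -1.50 in Nfya-KD over siControl (SE 0.33, limma adjusted p = 1.00). The other NF-Y subunits are the histone-fold proteins Nfyb and Nfyc. Nfyb had 52.9 and 127 FPKM in Nfya-KD and 13.0 and 38.8 FPKM in siControl, and Nfyc 34.5 and 49.5 FPKM in Nfya-KD and 26.6 and 42.5 FPKM in siControl. Nfyb did not overlap between the groups, Nfyc did, and neither passed the test across all genes.

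Which members change in Nfya-KD was asked with limma over the 10533 genes that reached 1 FPKM in 2 or more of the 4 libraries. The test used log2(FPKM + 1), a scale that understates the change of low genes. Because both siControl libraries had to be high for a gene to be a member, a lower value in Nfya-KD is in part set by the choice. At an adjusted p of 0.05, 0 members were lower and 0 higher, and the same was true of all genes, at 0% each way. At an unadjusted p under 0.05, 2 members were lower and 0 were higher, beside 0.873% lower and 0.446% higher among all genes tested. The members were Gm9 and 2610318N02Rik. This fit had no term for library number, so differences between numbers counted as spread within groups. Nfya was not called either, so 0 calls do not show that members are unchanged. With library number as a term, these 2 members were called lower, among 9 lower and 2 higher genes of all tested.

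Gm9, an X-linked coding gene next to the Rhox cluster of homeobox genes, was under 1 FPKM in both Nfya-KD libraries. It had 0.476 and 0.0801 FPKM in Nfya-KD, 32.1 and 49.4 FPKM in siControl and 0.0404 FPKM at the 1-cell stage. Both Nfya-KD libraries were closer to the 1-cell value than to either siControl library, and the groups did not overlap. The log2 change was -5.02 (SE 0.35, limma adjusted p = 0.146), and within the library numbers it was -4.49 and -5.54. The limma adjusted p of Gm9 was 0.0425 when the libraries were scaled to a common median and 0.00447 with library number as a term. It was 0.314 with a pseudocount of 0.1 and 0.465 with no filter on low values. With 1 library left out, the log2 change of Gm9 ranged between -5.32 and -4.71. Its promoter was the member window with the most CCAAT matches, as printed above.

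2610318N02Rik, a coding gene on chromosome 16 between Ppil2 and Sdf2l1, was the other. Its level was 8.97 and 8.00 FPKM in Nfya-KD, 30.5 and 33.6 FPKM in siControl and listed at 0 at the 1-cell stage. The groups did not overlap, and the libraries of each group were close to one another. Its log2 change was -1.80 (SE 0.30, limma adjusted p = 1.00). With library number as a term the limma adjusted p was 0.025.

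Counted by separation alone, both Nfya-KD libraries lay below both siControl libraries for 8 members (10.8%), beside 8.61% of all genes tested and 7.74% of the other genes at the rule. Both lay above for 2 members (2.7%), beside 8.27% of all genes and 1.79% of the other genes at the rule. The share below was near the background, and the share above was low for both sets that the rule chose by high siControl values. After Gm9 and 2610318N02Rik, the lower members by log2 change were Gm15056, 4933409K07Rik and 4632427E13Rik. Gm15056, a coding gene next to a beta-defensin gene on chromosome 8, had 7.98 and 1.13 FPKM in Nfya-KD, 11.1 and 11.3 FPKM in siControl, and was listed at 0 at the 1-cell stage. Its log2 change of -1.48 (SE 0.70, limma adjusted p = 1.00) rested mostly on Nfya-KD library 2 and was -0.44 without it. 4933409K07Rik, a transcribed pseudogene, had 15.3 and 9.15 FPKM in Nfya-KD, against 21.5 and 17.3 FPKM in siControl, a log2 change of -0.66. The lncRNA 4632427E13Rik had 10.3 and 7.02 FPKM in Nfya-KD, against 14.0 and 11.7 FPKM in siControl, a log2 change of -0.54. The remaining 3 of the 8, 2310039L15Rik, 1700030L20Rik and Gm10653, had log2 changes between -0.31 and -0.30.

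The 2 members above were both lncRNAs. 5430416N02Rik had 27.2 and 18.03 FPKM in Nfya-KD, against 15.2 and 15.3 FPKM in siControl, and 4930547E08Rik had 20.2 FPKM in both Nfya-KD libraries, against 13.2 and 18.8 FPKM in siControl. Their log2 changes were 0.51 and 0.34, and neither passed the test (limma adjusted p = 1.00 for each). For 4930547E08Rik the gap between the groups was smaller than the gap within the siControl pair.

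**Figure D3:**
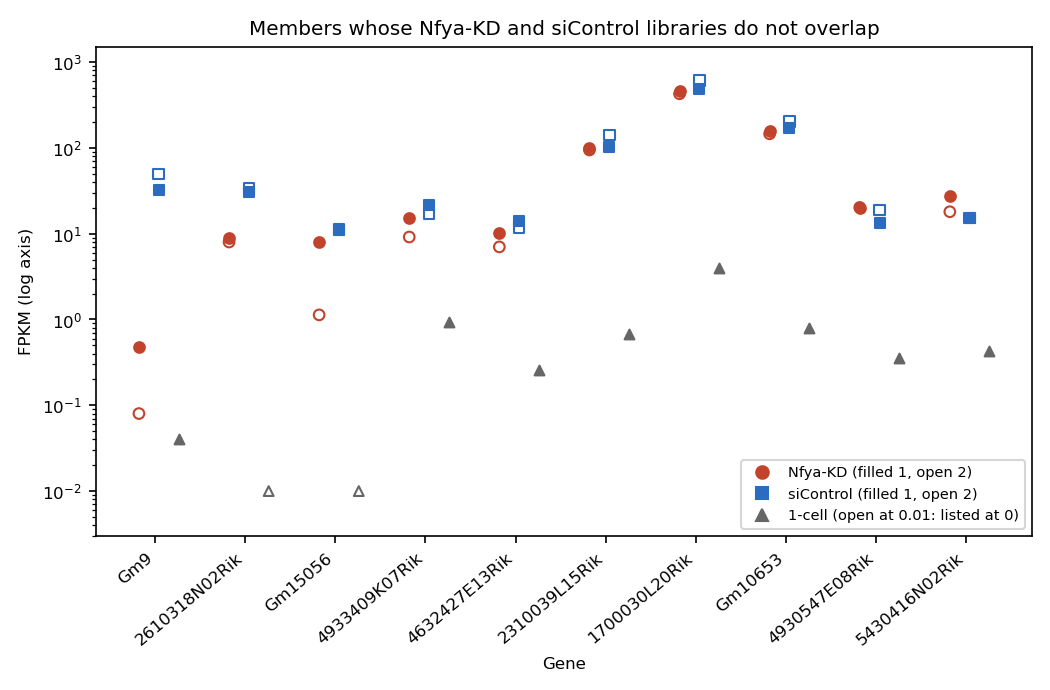
FPKM on a log axis (y) of the 10 members (x) whose Nfya-KD libraries (circles) lay on one side of both siControl libraries (squares), with the 1-cell library (triangles, open where listed at 0). Gm9 is the one gene shown with both Nfya-KD libraries under 1 FPKM.

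A log2 change below -1 was found for 5 members, beside 0.883% of all genes, and one above 1 for 0 members, beside 0.218%. Gm13871 and 1700013H16Rik were among the 5 without being separated, and were named after their values were seen. Gm13871, of a chromosome 4 block, had 26.1 and 0.762 FPKM in Nfya-KD, 20.1 and 60.6 FPKM in siControl and 0.152 FPKM at the 1-cell stage. Its low value was found in Nfya-KD library 2 alone, where its block neighbours Gm11756, Gm428 and Gm11487 had 41.5, 110 and 42.3 FPKM. Its window was 89.4% identical to that of Gm11756 and held no CCAAT. 1700013H16Rik, on the X chromosome, had 10.1 and 36.3 FPKM in Nfya-KD, against 17.4 and 107 FPKM in siControl, so that it was lower within each number while the groups overlapped.

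The 9 members that no longer met the activation rule with the Nfya-KD libraries in place of siControl were Gm9, 2610318N02Rik, Gm15056, Gm13871, 4933409K07Rik, 4632427E13Rik, Gm9895, Gm1995 and A530032D15Rik. The other 65 (87.8%) met it, beside 290 of 336 other genes at the rule (86.3%). The share was close in both sets. Of the 9, Gm9895, A530032D15Rik, Gm1995, 4933409K07Rik and 4632427E13Rik had siControl ratios of 10.2, 10.4, 10.5, 10.5 and 11.0, near the threshold.

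The library numbers differed for most members. Number 2 was above number 1 for 57 members in Nfya-KD and 68 members in siControl. The median log2 difference of number 2 over number 1 was 0.73 in Nfya-KD and 1.22 in siControl, beside 0.14 and 0.20 over all genes tested and 0.87 and 1.10 over the other genes at the rule. The summed FPKM of all genes differed the same way, at 260569 and 449820 in Nfya-KD and 243441 and 457684 in siControl. Of the marker lists, 10 oocyte and zygote genes summed to 4146 and 9502 FPKM in Nfya-KD and 3160 and 7480 FPKM in siControl, higher in number 2. The 2-cell embryo list, also higher in number 2, had 526 and 1281 FPKM in Nfya-KD, 467 and 1456 FPKM in siControl. Most of these sums came from Sp110, with 291 and 999 FPKM in Nfya-KD and 256 and 1046 FPKM in siControl. The sperm list was also higher in number 2, at 3.41 and 10.7 FPKM in Nfya-KD and 6.03 and 8.26 FPKM in siControl. The sums of 5 inner cell mass and trophectoderm genes were lower in number 2, at 29.7 and 13.0 FPKM in Nfya-KD and 42.1 and 17.3 FPKM in siControl, as were those of 10 cumulus and granulosa genes, at 5.13 and 3.85 FPKM in Nfya-KD and 7.06 and 6.399 FPKM in siControl. Sequencing depth relative to siControl library 1, read from the steps of low values, was 1.02 and 0.753 in Nfya-KD, 0.914 in siControl library 2 and 0.753 in the 1-cell library. The part of these differences in the members' levels was not tested.

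Within numbers the members' change in Nfya-KD went different ways. Pooled, 50 of 74 members (67.6%) had a log2 change under 0, beside 47.6% of all genes tested and 53% of the other genes at the rule. The pooled median log2 change was -0.12, beside -0.02 over the other genes at the rule and 0.01 over all genes tested. Within number 1 it was 0.07 for members, 0.11 for the other genes at the rule and 0.04 for all genes. Within number 2 it was -0.38 for members, -0.19 for the other genes at the rule and -0.02 for all genes. Lower in Nfya-KD within number 1 were 25 members (33.8%), beside 36.9% of the other genes at the rule and 43.2% of all genes. Within number 2 it was 60 members (81.1%), beside 70.8% and 53.2%. Within both numbers 23 members were lower (31.1%), beside 28.9% of the other genes at the rule and 25.9% of all genes. Higher within both were 12 (16.2%), beside 21.1% and 29.5%, while 37 were higher within number 1 and lower within number 2.

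The choice of members bears on these medians, so the choice was also made with one siControl library and the change read in the other number. With siControl library 1 as chooser, 63 Gm and Rik genes were taken and their median log2 change within number 2 was -0.44. With siControl library 2 as chooser, 117 were taken and their median within number 1 was 0.06. The gene sets differ between these readings, and the part of the choice in the medians was not tested.

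**Figure D4:**
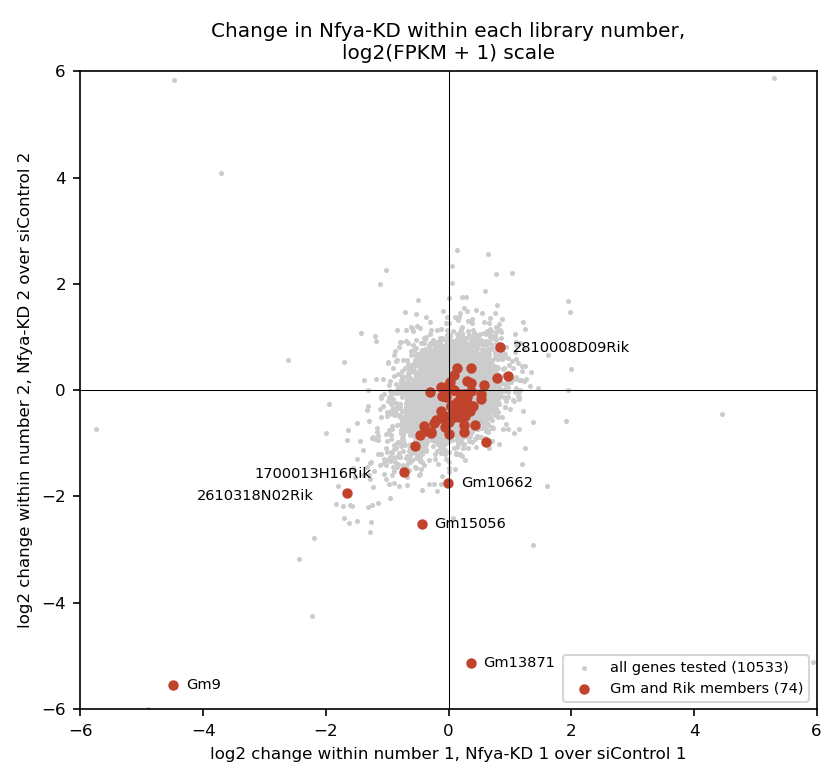
Log2 change in Nfya-KD over siControl on the log2(FPKM + 1) scale within number 1 (x axis) and within number 2 (y axis), for the 74 members (red) and all 10533 genes tested (grey); 5 genes lie outside the axes. Gm9 and 2610318N02Rik are low on both axes, and Gm13871 on the y axis alone.

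By class, the snoRNA genes and hosts had the highest median change. The hosts are spliced noncoding genes that carry small nucleolar RNAs, guides of ribosomal RNA modification, in their introns. Gm11974 (Snhg15) had 102 and 303 FPKM in Nfya-KD, against 78.9 and 226 FPKM in siControl. 2810008D09Rik (Snhg20) had 25.2 and 86.6 FPKM in Nfya-KD, against 13.7 and 49.1 FPKM in siControl. The groups overlapped for both genes, while each Nfya-KD library was above the siControl library of its number. With 1810032O08Rik (Snhg16), 1500012F01Rik (Zfas1) and the snoRNA gene Gm12238, 0 of these 5 had a pooled log2 change under 0, the median was 0.39 and the range was 0.09 to 0.82. Of all genes tested 47.6% were under 0, and none of the 5 passed the test. Zfas1 was lower within number 2, at -0.07. Gm12238 had 162 and 54.6 FPKM in Nfya-KD, against 82.5 and 45.2 FPKM in siControl, and so was lower in number 2 in both groups.

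The Pramel genes encode leucine-rich repeat proteins of germ cells and early embryos. Summed over the 6 of them, the level was 289 and 449 FPKM in Nfya-KD, 271 and 609 FPKM in siControl and 4.76 FPKM at the 1-cell stage. The median log2 change was -0.19, with 0.10 within number 1 and -0.49 within number 2, and B020004J07Rik (Pramel17) had 62.2 and 103 FPKM in Nfya-KD, against 60.6 and 149 FPKM in siControl. Tdpoz and Spop-like genes encode MATH and BTB domain proteins related to Spop, an adaptor of cullin ubiquitin ligases. Their 4 members summed to 261 and 568 FPKM in Nfya-KD and 228 and 685 FPKM in siControl, with a median log2 change of -0.02. In both families the Nfya-KD sum was above the siControl sum in number 1 and below it in number 2.

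Coding members that have kept a Gm or Rik symbol had a median of -0.23 over 27 genes, of which 23 were under 0. Of all members 67.6% were under 0, and of the other genes at the rule 53%. The class median was 0.03 within number 1 and -0.51 within number 2. The chromosome 12 block, with 6 such genes and the transcribed pseudogene Gm1995, summed to 393 and 1443 FPKM in Nfya-KD, against 345 and 1944 FPKM in siControl. None of the 7 was lower within number 1 and all were lower within number 2, beside 33.8% and 81.1% of all members. Since block members can be near-identical copies, these 7 are not separate results. Gm10662, among vomeronasal receptor genes on chromosome 7, had 46.7 and 58.7 FPKM in Nfya-KD, against 46.9 and 200 FPKM in siControl, and was named after its values were seen.

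The remaining coding members with a current gene name had small changes at the median. The splicing factor gene 0610009D07Rik (Sf3b6) had 47.0 and 109 FPKM in Nfya-KD, against 38.4 and 138 FPKM in siControl. Gm13718 (Btbd18), known in mouse testis for piRNA precursor transcription, had 19.6 and 21.5 FPKM in Nfya-KD, against 21.3 and 23.4 FPKM in siControl. 4933406J08Rik (Terb2), a meiotic telomere gene, had 13.6 and 16.6 FPKM in Nfya-KD, against 11.9 and 18.7 FPKM in siControl. The 8 genes of this class overlapped between the groups and had a median log2 change of -0.01. Gm5635 (Fthl17f), of an X-linked ferritin heavy chain-like family, was the lowest at -0.80, with 10.0 and 18.5 FPKM in Nfya-KD, against 15.1 and 39.3 FPKM in siControl. Transcribed pseudogenes had a median of -0.06 over 10 genes and the other lncRNAs -0.22 over 14. The lncRNA 2610019E17Rik (Rab26os) is named for lying opposite Rab26, and without a stated strand in the counting its reads cannot be told from those of that gene.

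**Figure D5:**
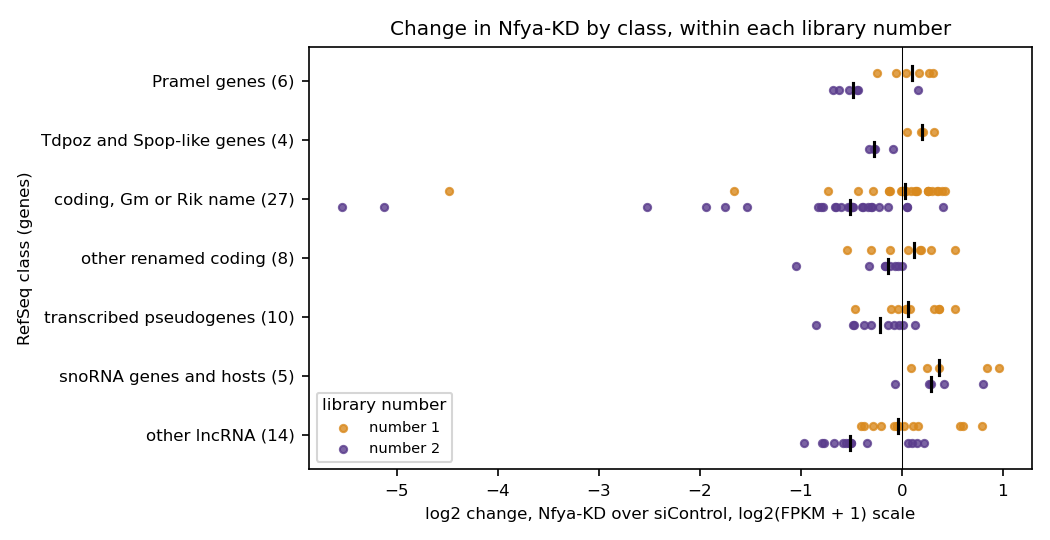
Log2 change in Nfya-KD over siControl on the log2(FPKM + 1) scale (x axis) of each member by RefSeq class (y axis), within number 1 (orange) and number 2 (purple), with black bars at class medians. The snoRNA class has both medians above 0, at 0.37 and 0.29, and the medians of the Pramel genes differ in sign between numbers.

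Promoter letters and change were set side by side for the 52 members with a window. Those with CCAAT or ATTGG (32 genes) had a median log2 change of -0.17, ranging between -5.02 and 0.51, and those without (20 genes) a median of -0.08, ranging between -2.38 and 0.82. With GGATTA (16 genes) the median log2 change was -0.14, and without it (36 genes) -0.13. The ranges overlapped widely, and no test was made.

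A list of 73 other genes known for the 2-cell stage, none of them a member, was read beside the members. The table held 64 of them, 61 were tested, and 31 met the rule. At an adjusted p of 0.05 limma called 0 of the 61, with 38 under 0, 23 over 0 and 1 lower at an unadjusted p under 0.05. Over all genes tested, 47.6% were under 0 and 0.873% were lower at that unadjusted p. The median log2 change of the 61 was -0.11, with 0.05 within number 1 and -0.30 within number 2, close to the members' values. The homeobox gene Obox3 had 143 and 849 FPKM in Nfya-KD, 124 and 1147 FPKM in siControl and 0.506 FPKM at the 1-cell stage, a log2 change of -0.11. Crxos1 had 260 and 1001 FPKM in Nfya-KD, 177 and 1008 FPKM in siControl and 0.514 FPKM at the 1-cell stage, a log2 change of 0.27. For Obox5 the log2 change was 0.26 and for Sp110 0.06, and the groups overlapped for all 4 genes. Obox5 and Sp110 already had 1033 and 192 FPKM at the 1-cell stage. Their ratios were 1.08 and 3.38, so neither met the rule. Of 6 markers of the 2-cell stage, 4 had at least 1 FPKM in all 2-cell libraries and Tcstv1 and Tcstv3 were listed at 0. Of 10 cumulus and granulosa markers, whose sum was 3.85 to 7.06 FPKM in the 2-cell libraries, Tnfaip6 alone reached 1 FPKM in each of them.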

How the data were processed

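RNA-seq was done on 5 libraries in 3 groups, taken with their numbers from the labels. The authors deposited FPKM per gene, per the table's name, and no count table was used. Per the submitters' processing notes, which give no roles, the build named is mm9 and the tools are Cufflinks 2.2.1, TopHat2 2.0.6 and Bowtie 0.12.9. No source used here says how reads shared by gene copies were treated or whether strand was used. The table's 0 other per-sample columns were left unused. Absolute depth is not known, so no counting interval is given. Relative depth came from the steps of values below 0.3 FPKM.

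Limma 3.58.1 (R 4.3.3, eBayes with trend) tested log2(FPKM + 1) over 10533 genes in 4 libraries, with group as the only term and Benjamini-Hochberg adjustment over all of them. It was also run on simulated data with set changes, and the outcome of that run is not given here. Members and gene lists were chosen with earlier results of these data known. Classes follow RefSeq symbols and biotypes. Named genes are the 10 highest siControl means, the 10 largest ratios, the 5 lowest and 5 highest log2 changes among separated members, the 3 smallest p, the genes nearest each threshold on both sides, the NF-Y subunits and the 4 highest of the 2-cell list. Others described were picked after seeing values, for their class or block.

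Promoters are RefSeq windows on GRCm38.p6, searched for 3 motifs on both strands. Pairwise identity came from global alignment (Biopython 1.88, Python 3.11.15). The DNase-seq tables hold no gene coordinates on mm9 and were not analysed here.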

Additional observations from a re-analysis of the deposited data

How the results depend on the processing

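At an adjusted p of 0.05 limma called 0 genes each way with no filter on low values, with a filter of 5 FPKM in 2 libraries and without the trend. It called 1 lower gene with a pseudocount of 0.1. With libraries scaled to a median ratio of 1 it called 3 lower and 1 higher genes, of which 1 was a member (Gm9, lower). With the replicate block, that is the library number as a term, it called 9 lower and 2 higher genes, of which 2 were members (Gm9 with adjusted p 0.00447 and 2610318N02Rik with 0.025, both lower), and Nfyb was higher (log2 change 1.81, adjusted p 0.0209). Libraries of one number deviated together (r = 0.744 across genes). Between groups, log2 levels of genes tested correlated at 0.976 in number 1 and 0.975 in number 2. Between numbers they correlated at 0.926 in siControl and 0.931 in Nfya-KD. There are only 2 such pairs, and no label says what libraries of one number have in common. Leaving out 1 library at a time, with the lone library assumed to vary like the others, gave 4 to 33 lower and 1 to 10 higher genes, and 1 to 3 lower members (Gm9 each time). The cause of more calls with fewer libraries was not tested. Members called higher were 0 under every setting.

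The members' median log2 change ranged between -0.71 and 0.45 when 1 library was left out, and its sign changed with the library. It was -0.47 without Nfya-KD library 2 and 0.20 without Nfya-KD library 1. Leaving out 1 library unbalances the library numbers, which differed for most members, so these medians do not separate Nfya-KD from library number. The median was -0.44 within number 2 for genes chosen with siControl library 1 alone. Within number 1 it was 0.06 for genes chosen with siControl library 2 alone. Within number 1 alone it was 0.07 and within number 2 alone -0.38. The pseudocount, filters, scaling, block and other thresholds gave medians between -0.17 and -0.12. With thresholds of 5 FPKM and a ratio of 5, 14 of 119 genes were separated lower and 6 higher, and with 20 and 20, 5 of 41 and 0, beside 8.61% lower and 8.27% higher over all genes tested. Compared within each number, an addition made after seeing the data, 23 were lower and 12 higher in both. The activation rule was met by 56 to 67 members under its alternatives. The log2 change of Nfyc ranged between -0.037 (without siControl library 1) and 0.62 with 1 library left out. The like-window count and the within-number medians were also added after seeing the data. Without counts no interval can be set on low values, so members near 0 FPKM cannot be told from absent ones.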
